A study of Mus musculus with 4 samples.

Results

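To describe the genes that make, phosphorylate and spend NAD in cells overexpressing PGC-1α, 10 genes were followed in RNA-Seq data of HT-22 cells: the NAD kinases Nadk and Nadk2, the NAD synthesis genes Nampt, Nmnat1 and Afmid, and the sirtuins Sirt1, Sirt2, Sirt3, Sirt5 and Sirt7. They are 10 of the 11502 gene symbols to which the deposited transcripts could be matched, and they hold 27 of the 25889 deposited transcripts. The genes belong together by their function, but they were chosen by a rule set with their measured changes in these same libraries in view. The differences between libraries are therefore given as a description of the values that were used to choose them, and nothing is tested on them.

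HT-22 cells are an immortalized line of mouse hippocampal neurons. Cells that received a negative control lentivirus formed the group Ctrl, and those that received a lentivirus overexpressing PGC-1α formed the group PGC-1α. Cells of either kind that went through oxygen and glucose deprivation (OGD) are called Ctrl+OGD or PGC-1α+OGD. All cells were transduced and selected with puromycin according to the methods of the study, although the labels call the control genotype wild type. The promoter that drives the transgene is not given in the sources used here. OGD meant 2 h without oxygen, serum and glucose, after which the cells had normal medium for 24 h. There was 1 library in each of the 4 groups, so that no group had replicates, and no test was run.

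NAD carries electrons between metabolic reactions, and it is also consumed as a substrate. NAD kinases add a phosphate to it and so make NADP, whose reduced form supplies biosynthesis and antioxidant defence. NADK does this in the cytosol and NADK2 inside mitochondria. Most NAD of mammalian cells is rebuilt from nicotinamide by the salvage pathway, in which NAMPT makes nicotinamide mononucleotide and the NMNAT enzymes turn that into NAD. A separate de novo route starts from tryptophan and runs through kynurenine, which AFMID releases from its formyl precursor. Sirtuins split NAD to remove acetyl and related groups from proteins. Among their best known substrates is PGC-1α itself, which SIRT1 deacetylates.

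The value used for a gene is the sum of its deposited transcripts in FPKM, a count of fragments scaled by transcript length and by the mapped fragments of the library, so that levels of different genes can be compared per length. The unit is named in no source and was taken as FPKM from the values, so comparisons of level between genes rest on that reading. A change is the difference of log2(FPKM + 1) between a pair of libraries, which understates the change of low genes. The comparison took in the 10604 genes whose mean reached 1 FPKM, and the threshold for calling a difference was 1.5-fold, a log2 difference of 0.58. All 10 genes passed this filter after summing. The 4 libraries summed to between 331892 and 353381 FPKM, and the number of reads behind them is unknown. Ppargc1a, the overexpressed gene, was at 0.900 FPKM in Ctrl against 35.1 FPKM in PGC-1α, and after OGD at 0.103 FPKM in Ctrl+OGD against 8.41 FPKM in PGC-1α+OGD, so that both libraries labelled as overexpressing were above both controls.

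Of 15 neuronal marker genes, 3 had matched transcripts (Syp, Dlg4 and Camk2a), and their summed level was 10.2 FPKM in Ctrl against 6.66 FPKM in PGC-1α, and after OGD 6.76 FPKM in Ctrl+OGD against 6.00 FPKM in PGC-1α+OGD. The other neuronal markers, with Rbfox3, Map2 and Tubb3 among them, had no matched transcript and are not analysed here. The proliferation and progenitor markers numbered 5, and 3 had matched transcripts (Mki67, Top2a and Vim), with a sum between 665 and 813 FPKM. Nes and Sox2 had none and are not analysed here. Of 5 markers each for astrocytes, microglia and oligodendrocytes, 2 (Aldh1l1 and S100b), 2 (Cx3cr1 and Tmem119) and 1 (Mbp) had matched transcripts, with sums from 12.8 to 22.9 FPKM, from 0.740 to 2.66 FPKM and from 3.26 to 4.76 FPKM. In a bulk sample fewer cells with a transcript and less of it per cell cannot be told apart.

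Most of the stretches below are shown because deposited transcripts differ there. Exon 4 of Sirt2 sets apart only Sirt2-209, the lowest of its transcripts by mean, and the Sirt5 stretch is shown for a sequence match. The first 4 are exons that some deposited transcripts contain and others skip, read from the GRCm38 genome by the GENCODE M21 annotation. Exon 5 of Nadk2 lies at chr15:9091175-9091258 on the plus strand, is 84 bases long and is coding, and it is present in Nadk2-201 and Nadk2-203 but skipped in Nadk2-202. Exon 8 of Nadk2 lies at chr15:9098809-9098874, has 66 bases and belongs to Nadk2-201 alone. Exon 2 of Sirt1 lies on the minus strand at chr10:63336980-63337096, has 117 bases and is skipped in Sirt1-202. Exon 4 of Sirt2 lies on the plus strand at chr7:28772095-28772208, has 114 bases and is skipped in Sirt2-209. Each has a length that is a multiple of 3.
Nadk2 exon 5: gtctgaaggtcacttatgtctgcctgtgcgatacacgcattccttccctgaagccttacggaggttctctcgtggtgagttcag
Nadk2 exon 8: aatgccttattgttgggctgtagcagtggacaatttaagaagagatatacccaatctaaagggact
Sirt1 exon 2: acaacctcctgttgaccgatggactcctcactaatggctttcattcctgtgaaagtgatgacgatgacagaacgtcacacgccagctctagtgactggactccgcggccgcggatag
Sirt2 exon 4: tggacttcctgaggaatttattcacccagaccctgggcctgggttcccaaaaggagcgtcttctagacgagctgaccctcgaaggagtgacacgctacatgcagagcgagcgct

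The next 3 stretches lie just before first exons, and come from the promoter windows of RefSeq on GRCm38.p6, which run from 250 bases before to 50 bases after a start. Exonic bases were left out. The pair for Nadk precedes the alternative first exons between which its transcripts differ, at chr4:155562131-155562377 before Nadk-201 and at chr4:155563565-155563699 before Nadk-203. The Sirt5 stretch, at chr13:43365285-43365495, is shown for a match to AAGGTCA, the core site of estrogen-related receptors, which is written in capitals.
Nadk before the upstream first exon: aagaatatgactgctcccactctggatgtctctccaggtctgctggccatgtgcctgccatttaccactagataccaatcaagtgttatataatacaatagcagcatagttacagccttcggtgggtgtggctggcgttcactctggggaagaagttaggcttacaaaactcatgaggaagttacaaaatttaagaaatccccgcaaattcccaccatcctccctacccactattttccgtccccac
Nadk before the downstream first exon: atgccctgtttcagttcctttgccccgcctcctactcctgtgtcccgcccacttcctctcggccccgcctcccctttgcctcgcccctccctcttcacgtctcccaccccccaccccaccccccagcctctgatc
Sirt5: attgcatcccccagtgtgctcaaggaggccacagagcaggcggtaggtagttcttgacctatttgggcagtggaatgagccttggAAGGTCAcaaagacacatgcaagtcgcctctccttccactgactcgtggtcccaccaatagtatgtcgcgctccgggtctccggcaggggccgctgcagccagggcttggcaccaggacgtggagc

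For 9 of the genes, all but Nadk2, 12 windows were read, and AAGGTCA was searched on both strands together with its longer form TCAAGGTCA, which contains it, and with GCGCATGC, a core site of nuclear respiratory factor 1. AAGGTCA occurred in the window of Sirt5 alone, 165 bases before the start, and among 32851 mouse promoter windows 4.72% held it. TCAAGGTCA, found in 0.423% of windows, had no match in those of the 9 genes. GCGCATGC was found 27 bases before the downstream RefSeq start of Nadk (chr4:155563815) and 24 bases before that of Sirt7, against 2.71% of all windows. The Nadk match lies after the annotated start of Nadk-203 (chr4:155563700). All bases of the window before the Sirt7 start are exonic in the annotation. Neither match lies in a printed stretch. These matches describe letters in a window and were not compared with binding data.

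The NAD kinases showed the widest and the narrowest range of the group. Nadk2 (ENSMUSG00000022253, chr15:9071260-9110891, plus strand), the mitochondrial kinase, was at 0.554 FPKM in Ctrl against 33.3 FPKM in PGC-1α, and after OGD at 1.71 FPKM in Ctrl+OGD against 8.58 FPKM in PGC-1α+OGD. Both libraries with PGC-1α were above both without it, and the highest value was 60.2 times the lowest. PGC-1α vs Ctrl gave a log2 difference of 4.47, which ranked 3 among the 10604 genes counted from the largest rise. With OGD the same contrast gave 1.82, at rank 25. OGD went with a higher level in control cells (log2 difference 0.80) and with a lower one in PGC-1α cells (-1.84, rank 10577). The PGC-1α difference was smaller after OGD than without it by 2.65 on the log2 scale, and this has no test.

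Nadk (ENSMUSG00000029063, chr4:155562378-155591001, plus strand), the cytosolic kinase, was the most abundant of the 10 genes. It was at 38.7 FPKM in Ctrl against 38.5 FPKM in PGC-1α, and after OGD at 38.6 FPKM in Ctrl+OGD against 39.6 FPKM in PGC-1α+OGD, with log2 differences from -0.01 to 0.04. Because Nadk hardly varied, the sum of both kinases followed Nadk2, with 39.2, 71.9, 40.3 and 48.1 FPKM for Ctrl, PGC-1α, Ctrl+OGD and finally PGC-1α+OGD, which is the order of all such series of values below. Per length, the mitochondrial kinase was thus far below the cytosolic one in Ctrl and nearly level with it in PGC-1α.

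**Figure D1:**
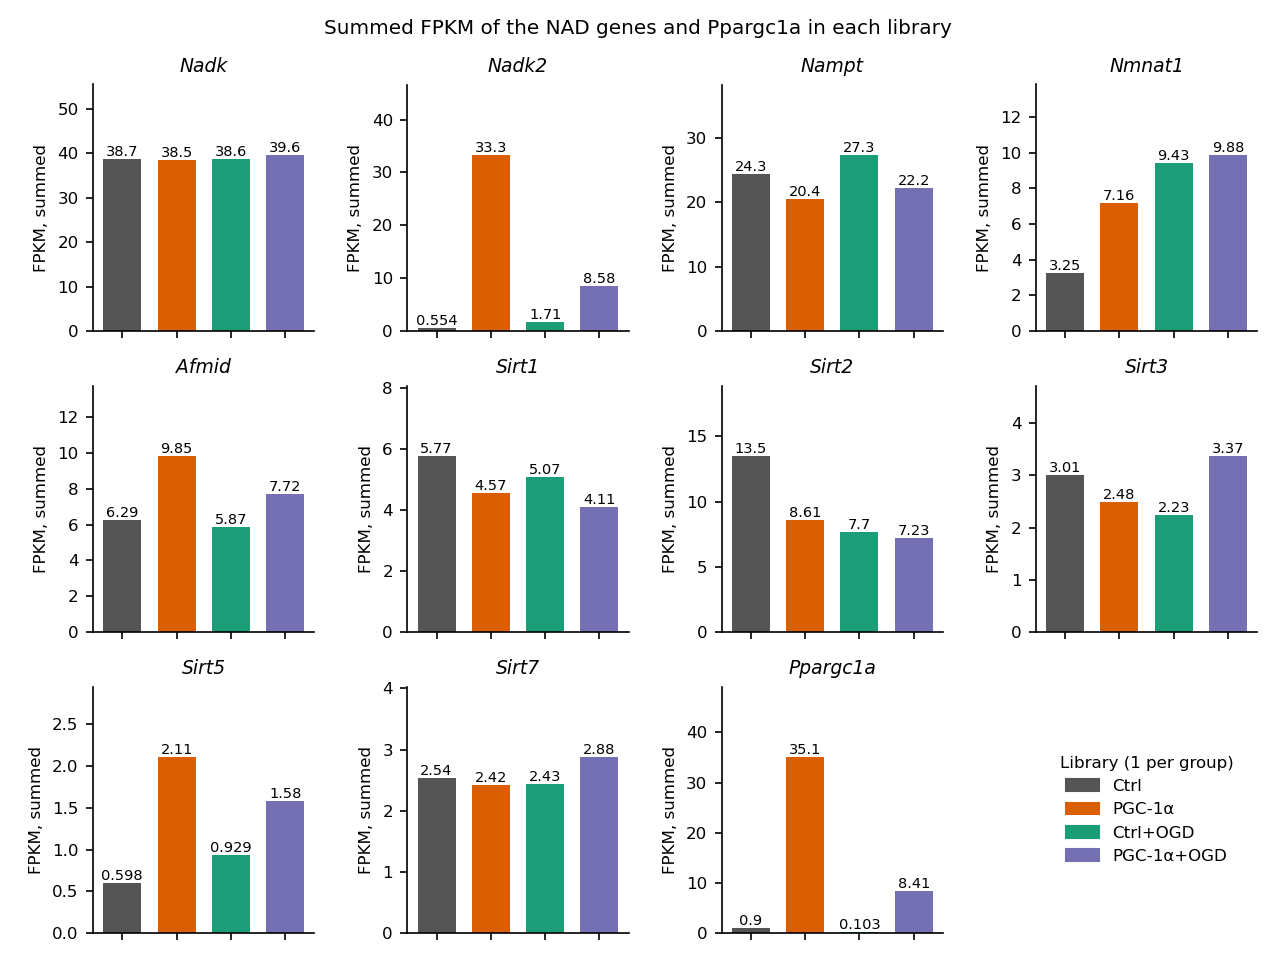
Bars give the summed FPKM of each of the 10 genes and of Ppargc1a in the 4 libraries, 1 library per group and no error bar, with a separate linear axis from 0 for each gene. Nadk2 reached 33.3 FPKM in PGC-1α and 8.58 FPKM in PGC-1α+OGD and stayed at or below 1.71 FPKM in both libraries without the transgene, while Nadk lay between 38.5 and 39.6 FPKM in all 4.

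Which transcripts carried these sums differed between libraries. Nadk2-203, which holds exon 5 but not exon 8, was at 0.00896 FPKM in Ctrl against 27.8 FPKM in PGC-1α, and after OGD at 0.0800 FPKM in Ctrl+OGD against 0.691 FPKM in PGC-1α+OGD. Nadk2-202, which lacks both exons, was at 0.465, 1.26, 1.19 and 5.81 FPKM in the order given. Nadk2-201, which holds both, was at 0.0800, 4.29, 0.436 and 2.07 FPKM. The PGC-1α library was therefore the only one led by Nadk2-203, and the other 3 were led by Nadk2-202.

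Transcripts with the 84-base exon made up 16.1% of Nadk2 in Ctrl against 96.2% in PGC-1α, and 30.2% against 32.2% after OGD. The shares in Ctrl and Ctrl+OGD are of sums of only 0.554 and 1.71 FPKM, so their precision is unknown. In PGC-1α vs Ctrl all 3 transcripts were higher, by 0.63, 2.29 and 4.83 on the log2 scale for Nadk2-202, Nadk2-201 and Nadk2-203. All 3 were also higher in PGC-1α+OGD vs Ctrl+OGD, by 1.63, 1.10 and 0.65. Under OGD in PGC-1α cells they parted, with Nadk2-203 at -4.09, Nadk2-201 at -0.78 and Nadk2-202 at 1.59. The lower sum of Nadk2 in that comparison was thus made of a much lower Nadk2-203 and a higher Nadk2-202, the transcript without the exon. Without its most abundant transcript, Nadk2-203, the sum gave 0.44 instead of -1.84.

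The level sum of Nadk hid opposite transcripts. Nadk-201, from the upstream first exon, was at 17.8 FPKM in Ctrl against 4.62 FPKM in PGC-1α, and after OGD at 6.45 FPKM in Ctrl+OGD against 6.65 FPKM in PGC-1α+OGD. Nadk-203, from a first exon downstream, was at 17.7 FPKM in Ctrl against 31.8 FPKM in PGC-1α, and after OGD at 30.4 FPKM in Ctrl+OGD against 31.3 FPKM in PGC-1α+OGD. Both have 1317 coding bases in the annotation. The Ctrl library stood apart from the other 3, with 46.1% of Nadk from the upstream exon against at most 16.8%. Nadk-201 had log2 differences of -1.74 for PGC-1α vs Ctrl and -1.34 for Ctrl+OGD vs Ctrl, while between PGC-1α+OGD and Ctrl+OGD both transcripts differed by 0.04. The other 3 Nadk transcripts, all annotated as incomplete, lay between 0.122 and 1.76 FPKM.

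**Figure D2:**
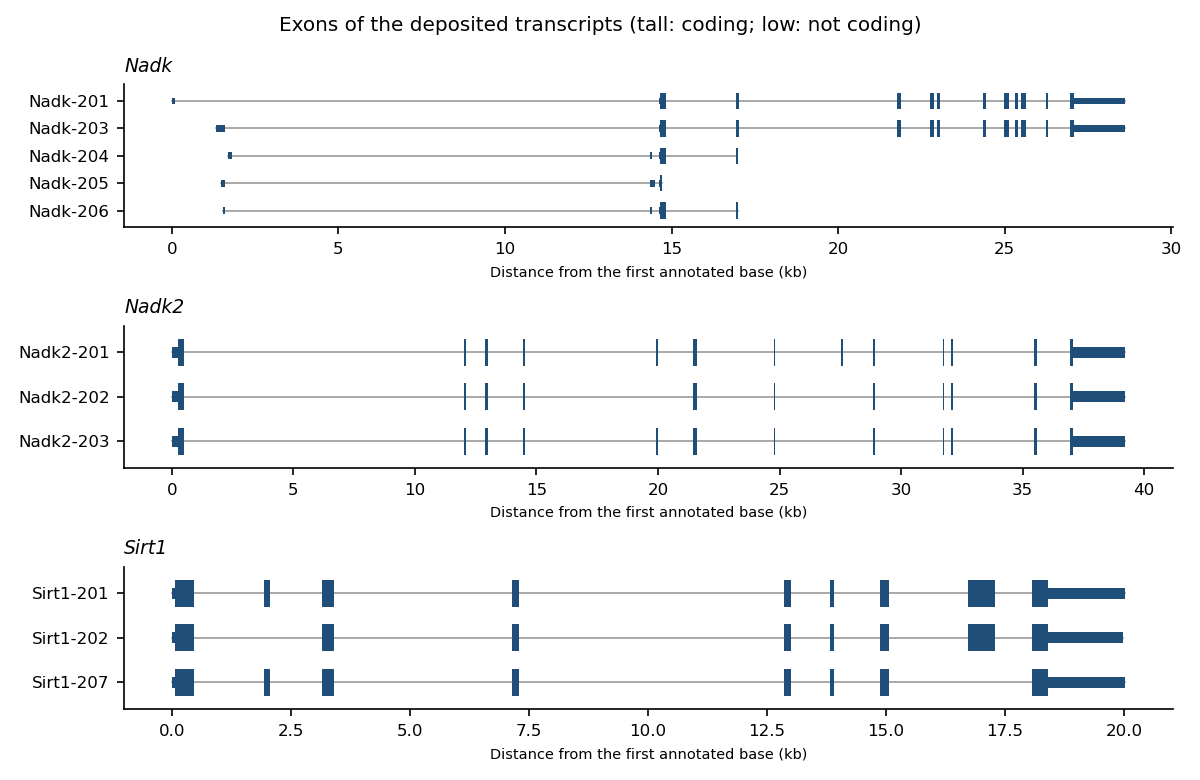
Exon maps of the deposited transcripts of Nadk, Nadk2 and Sirt1, drawn to scale in kilobases from the first annotated base in the direction of transcription, with coding exons tall and noncoding stretches low. Nadk transcripts differ in their first exons, and Nadk2 transcripts mainly in exons of 84 and 66 bases. Sirt1 transcripts differ in the exon of 117 bases and in another of 552 bases.

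Among the synthesis genes, Nampt (ENSMUSG00000020572, chr12:32819545-32853349, plus strand), the rate-limiting enzyme of salvage, had 1 deposited transcript. It was at 24.3 FPKM in Ctrl against 20.4 FPKM in PGC-1α, and after OGD at 27.3 FPKM in Ctrl+OGD against 22.2 FPKM in PGC-1α+OGD. Both PGC-1α libraries were lower than both control libraries, by log2 differences of -0.24 without and -0.28 with OGD, and neither passed 1.5-fold. With OGD the differences were 0.16 in control cells and 0.12 in PGC-1α cells.

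Nmnat1 (ENSMUSG00000028992, chr4:149467572-149485202, minus strand), the nuclear NMNAT enzyme, was at 3.25 FPKM in Ctrl against 7.16 FPKM in PGC-1α, and after OGD at 9.43 FPKM in Ctrl+OGD against 9.88 FPKM in PGC-1α+OGD. Ctrl was the low library, and the other 3 lay closer together. PGC-1α vs Ctrl gave a log2 difference of 0.94 and Ctrl+OGD vs Ctrl one of 1.29, both past 1.5-fold, while PGC-1α+OGD vs Ctrl+OGD gave 0.06 and PGC-1α+OGD vs PGC-1α gave 0.41. The first pair of comparisons shares the Ctrl library, so they are not separate observations of that low value.

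Nmnat1-203, with 447 coding bases, hardly varied, at 3.20, 2.92, 2.54 and 3.13 FPKM in the order given. The rest came from Nmnat1-201 and Nmnat1-202, which have 855 coding bases each. Together these were at 0.0492 FPKM in Ctrl against 4.24 FPKM in PGC-1α, and after OGD at 6.89 FPKM in Ctrl+OGD against 6.75 FPKM in PGC-1α+OGD, or 1.51%, 59.2%, 73.1% and 68.3% of the gene. The longer reading frame was thus nearly missing from the Ctrl values and led the other 3. In PGC-1α it was listed mostly under Nmnat1-202 (4.09 FPKM, with 0.148 FPKM for Nmnat1-201). After OGD it was listed entirely under Nmnat1-201 (6.89 and 6.75 FPKM, with 0 for Nmnat1-202 in both).

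Afmid (ENSMUSG00000017718, chr11:117825924-117839908, plus strand), the kynurenine formamidase, had 1 deposited transcript as well. Its values were 6.29 FPKM in Ctrl against 9.85 FPKM in PGC-1α, and after OGD 5.87 FPKM in Ctrl+OGD against 7.72 FPKM in PGC-1α+OGD, and both PGC-1α libraries were above both control libraries. The log2 difference of 0.57 for PGC-1α vs Ctrl was just under the threshold, and it was just past it at 0.60 with median ratio scaling and at 0.64 or 0.65 with pseudocounts of 0.1 or 0.01. With OGD, PGC-1α cells differed from control cells by 0.34, and OGD itself went with differences of -0.09 in control cells and -0.31 in PGC-1α cells. Exons of Afmid overlap those of Gm20708 on the same strand, which was at 0.645 FPKM or less in all libraries, and those of Tk1 on the other strand.

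Of the sirtuins, Sirt2 (ENSMUSG00000015149, chr7:28766735-28788661, plus strand), a deacetylase found mainly in the cytosol, was the most abundant of the 5 followed here. It was at 13.5 FPKM in Ctrl against 8.61 FPKM in PGC-1α, and after OGD at 7.70 FPKM in Ctrl+OGD against 7.23 FPKM in PGC-1α+OGD, so that Ctrl was high and the other 3 were close. PGC-1α vs Ctrl gave a log2 difference of -0.60, which fell short of 1.5-fold at -0.56 with median ratio scaling, and Ctrl+OGD vs Ctrl gave one of -0.74. With OGD, PGC-1α cells differed from control cells by -0.08. The summed neuronal markers were highest in the Ctrl library too, at 10.2 FPKM against at most 6.76 FPKM, and their part in this result was not tested.

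Sirt2-202 was at 6.84 FPKM in Ctrl and between 2.41 and 2.98 FPKM in the other libraries. Sirt2-208 was at 4.31, 3.22, 1.71 and 1.67 FPKM in the order given. Sirt2-201 ran the other way, with 1.46 FPKM in Ctrl against 1.97 FPKM in PGC-1α, and after OGD with 3.57 FPKM in Ctrl+OGD against 2.57 FPKM in PGC-1α+OGD. Sirt2-209, the transcript that skips exon 4, was at 0.920 FPKM in Ctrl, was at 0.781 FPKM in PGC-1α and was listed at 0 in both OGD libraries. Without Sirt2-202 PGC-1α vs Ctrl gave -0.14, so that lower sum rested largely on 1 transcript. For Ctrl+OGD vs Ctrl the value without it was -0.29. There Sirt2-208 (-0.97) and Sirt2-209 (-0.94) were lower as well, and a higher Sirt2-201 (0.89) offset them in part. Sirt2 exons overlap Nfkbib on the opposite strand.

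Sirt1 (ENSMUSG00000020063, chr10:63319005-63381704, minus strand), the nuclear deacetylase that acts on PGC-1α, was at 5.77 FPKM in Ctrl against 4.57 FPKM in PGC-1α, and after OGD at 5.07 FPKM in Ctrl+OGD against 4.11 FPKM in PGC-1α+OGD. Its summed log2 differences, -0.28 and -0.25 for PGC-1α without and with OGD and -0.16 and -0.13 for OGD, were all below 0 and short of 1.5-fold. Per transcript the picture was another one. Sirt1-202, which skips exon 2, was at 5.34 FPKM in Ctrl against 0.304 FPKM in PGC-1α, and after OGD it was listed at 0 in Ctrl+OGD against 0.672 FPKM in PGC-1α+OGD. Sirt1-201, which keeps it, was at 0.435, 3.55, 5.07 and 3.43 FPKM in the order given. Transcripts with exon 2 were 7.54% of Sirt1 in Ctrl and 93.4%, 100% and 83.6% in the others. Sirt1-207, which lacks the exon of 552 bases, was listed only in PGC-1α, at 0.724 FPKM.

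Sirt3 (ENSMUSG00000025486, chr7:140863666-140882309, minus strand), the main mitochondrial deacetylase, was at 3.01 FPKM in Ctrl against 2.48 FPKM in PGC-1α, and after OGD at 2.23 FPKM in Ctrl+OGD against 3.37 FPKM in PGC-1α+OGD. PGC-1α went with a lower value without OGD (log2 difference -0.20) and a higher one with OGD (0.44), and neither reached 1.5-fold. The share of Sirt3-201, from the upstream first exon, was 48.5%, 52.0%, 38.1% and 60.1% in the order given. Psmd13 and Ric8a overlap Sirt3 exons on the opposite strand.

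Sirt5 (ENSMUSG00000054021, chr13:43365496-43395203, plus strand), a mitochondrial enzyme that removes succinyl, malonyl and glutaryl groups, was the least abundant of the 10. It was at 0.598 FPKM in Ctrl against 2.11 FPKM in PGC-1α, and after OGD at 0.929 FPKM in Ctrl+OGD against 1.58 FPKM in PGC-1α+OGD, and both PGC-1α libraries were above both control libraries. The log2 difference of 0.96 for PGC-1α vs Ctrl passed 1.5-fold and that of 0.42 with OGD did not. Since Sirt5 lies near the pseudocount, the second became 0.70 and 0.76 with pseudocounts of 0.1 and 0.01. OGD itself went with differences of 0.27 in control cells and -0.27 in PGC-1α cells. In PGC-1α 85.5% of Sirt5 came from Sirt5-201, which was listed at 0 in Ctrl and was at 0.563 FPKM in Ctrl+OGD against 0.277 FPKM in PGC-1α+OGD. In PGC-1α+OGD 82.4% came from Sirt5-211, the transcript that begins next to the stretch with the AAGGTCA match. Sirt5-211 was at 0.598 FPKM in Ctrl against 0.305 FPKM in PGC-1α, and after OGD at 0.365 FPKM in Ctrl+OGD against 1.30 FPKM in PGC-1α+OGD. With PGC-1α it was thus lower without OGD (-0.29) and higher with OGD (0.75), and a link to the match was not tested. The high PGC-1α values with and without OGD were thus listed under different transcripts.

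Sirt7 (ENSMUSG00000025138, chr11:120618372-120625240, minus strand), a deacetylase of the nucleolus, was at 2.54 FPKM in Ctrl against 2.42 FPKM in PGC-1α, and after OGD at 2.43 FPKM in Ctrl+OGD against 2.88 FPKM in PGC-1α+OGD. No difference of the sum went past 0.18 on the log2 scale. The full-length Sirt7-201 was at 0.441, 2.32, 1.24 and 1.58 FPKM in the order given, and Sirt7-207, which is annotated as incomplete, was at 2.10, 0.105, 1.18 and 1.29 FPKM. Sirt7 shares exonic bases on the same strand with Mafg, which lay between 22.0 and 24.6 FPKM, and with Mir6936. How reads were divided between these genes is not given in the sources used here.

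**Figure D3:**
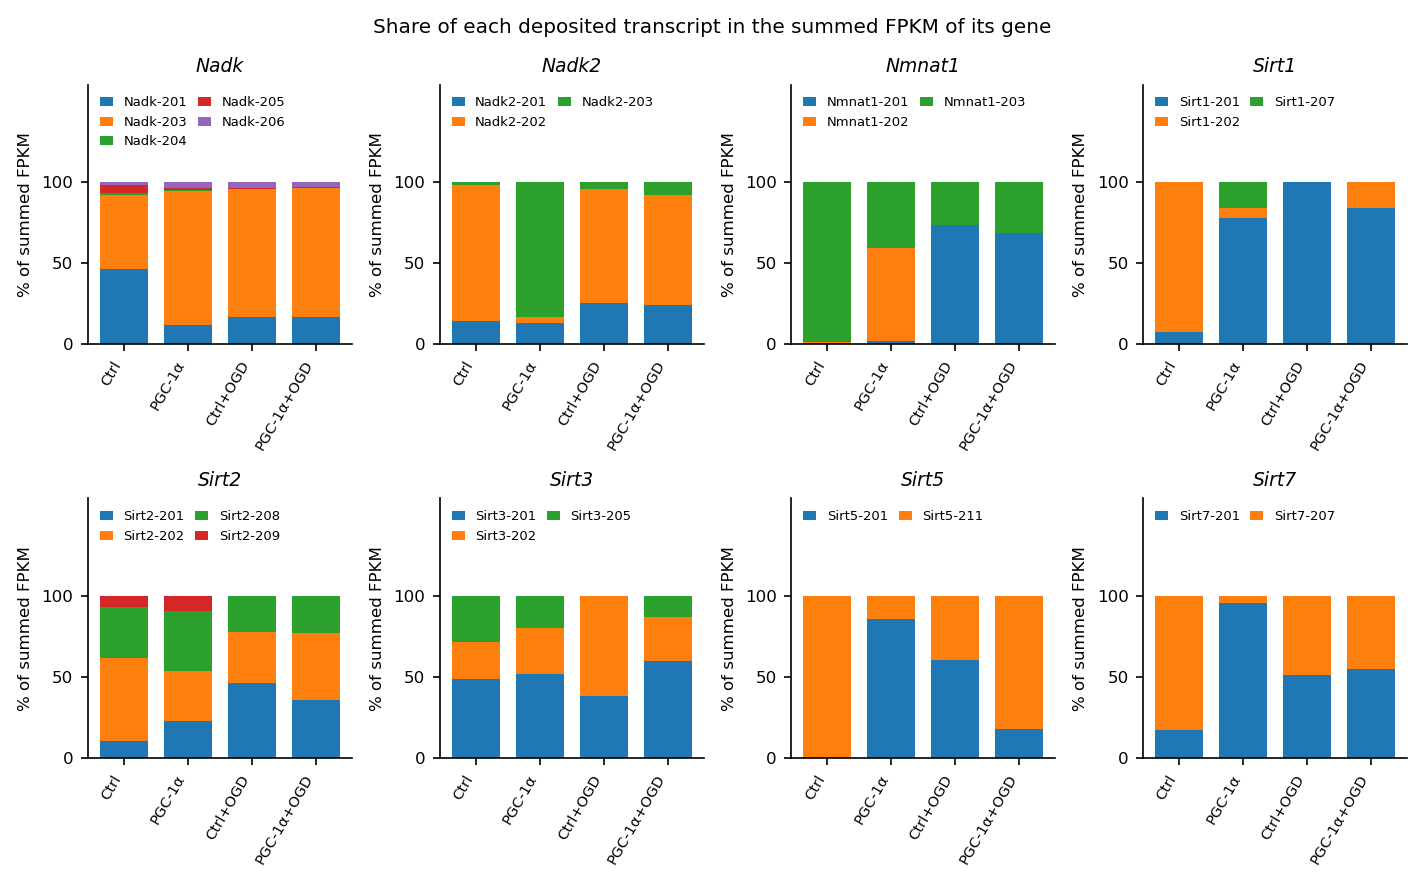
Stacked bars give the share of each deposited transcript, in percent of the summed FPKM of its gene, for the 8 genes with 2 or more deposited transcripts in the 4 libraries. In Ctrl, Sirt1 was 92.5% Sirt1-202 and Nmnat1 was 98.5% Nmnat1-203, while in PGC-1α Nadk2 was 83.3% Nadk2-203 and Sirt7 was 95.7% Sirt7-201.

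Across the 10 genes, mean levels over the 4 libraries ran from Nadk (38.9 FPKM) through Nampt (23.5), Nadk2 (11.0), Sirt2 (9.27), Afmid (7.43), Nmnat1 (7.43), Sirt1 (4.88), Sirt3 (2.77) and Sirt7 (2.57) to Sirt5 (1.30 FPKM). The ranges of neighbours over the libraries overlapped except between Nadk and Nampt, between Sirt1 and Sirt3 and between Sirt7 and Sirt5. For 5 genes (Nadk, Nampt, Sirt1, Sirt3 and Sirt7) the range over the libraries stayed under 1.5-fold on the scale of log2(FPKM + 1), as it did for 71.3% of all compared genes.

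In PGC-1α vs Ctrl, 3 of the 10 genes were higher by at least 1.5-fold (Nadk2, Nmnat1 and Sirt5), where 4.91% of all compared genes were, and 1 was lower (Sirt2), where 5.63% were. With median ratio scaling 4 were higher and 0 lower, as Afmid passed the threshold and Sirt2 no longer did. In PGC-1α+OGD vs Ctrl+OGD only Nadk2 was higher, against 3.08%, and none was lower, against 3.82%. OGD in control cells went with higher Nadk2 and Nmnat1, against 6.20% of genes, and lower Sirt2, against 7.71%. In PGC-1α cells OGD went with no higher gene, against 3.82%, and with lower Nadk2, against 5.22%. The median log2 differences of the 10 genes, -0.03, 0.12, -0.02 and -0.04 in these 4 comparisons, stood beside -0.03, -0.01, -0.02 and 0.00 for all genes. As the genes were chosen with these values known, the shares are given side by side and nothing is read from them.

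The choice of transcript reversed the direction of many of these small changes. With the transcript of highest mean in place of the sum, 3 of the 8 genes with several transcripts (37.5%) had the opposite sign from their sum in each comparison. In PGC-1α vs Ctrl these were Nadk (sum -0.01, highest transcript 0.81), Sirt1 (-0.28 and 1.66) and Sirt7 (-0.05 and 1.20). In Ctrl+OGD vs Ctrl the same 3 genes were reversed, Nadk from 0.00 to 0.74, Sirt1 from -0.16 to 2.08 and Sirt7 from -0.05 to 0.64. All 6 of these values of the highest transcript were past 1.5-fold upward, whereas no sum was. They share the Ctrl library as their baseline. The sums of Nadk and Sirt7 were nearly flat, so their signs give no clear direction. With median ratio scaling those of Nadk were 0.03 and 0.02.

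With PGC-1α+OGD vs Ctrl+OGD the reversed genes were Nmnat1 (sum 0.06, highest transcript -0.03), Sirt2 (-0.08 and 0.22) and Sirt5 (0.42 and -0.29). With PGC-1α+OGD vs PGC-1α they were Nadk (0.04 and -0.02), Sirt2 (-0.22 and 0.13) and Sirt7 (0.18 and -0.36). None of these reached 1.5-fold by either value. Among all 6405 compared genes with 2 or more transcripts, signs were opposite in 21.4% for PGC-1α vs Ctrl, 24.4% for PGC-1α+OGD vs Ctrl+OGD, 18.6% for OGD in control cells and 22.1% for OGD in PGC-1α cells. Reversals among the followed genes were known when these were chosen, so nothing is read from the shares.

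Some calls kept their direction but not their size. For Nadk2 in PGC-1α+OGD vs Ctrl+OGD the highest transcript gave 0.65 where the sum gave 1.82, and for OGD in control cells it gave 0.10 where the sum gave 0.80. For Nmnat1 in PGC-1α vs Ctrl it gave 0.20 where the sum gave 0.94. Other values passed 1.5-fold by the highest transcript and not by the sum. For OGD in PGC-1α cells, Nmnat1 had 2.75 where its sum had 0.41, and Sirt5 had -1.13 where its sum had -0.27. Sirt5 had 0.64 for OGD in control cells where its sum had 0.27, set against a Ctrl value listed at 0. Sirt3 had 0.71 in PGC-1α+OGD vs Ctrl+OGD where its sum had 0.44. Nampt and Afmid have 1 transcript and cannot differ in this way.

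**Figure D4:**
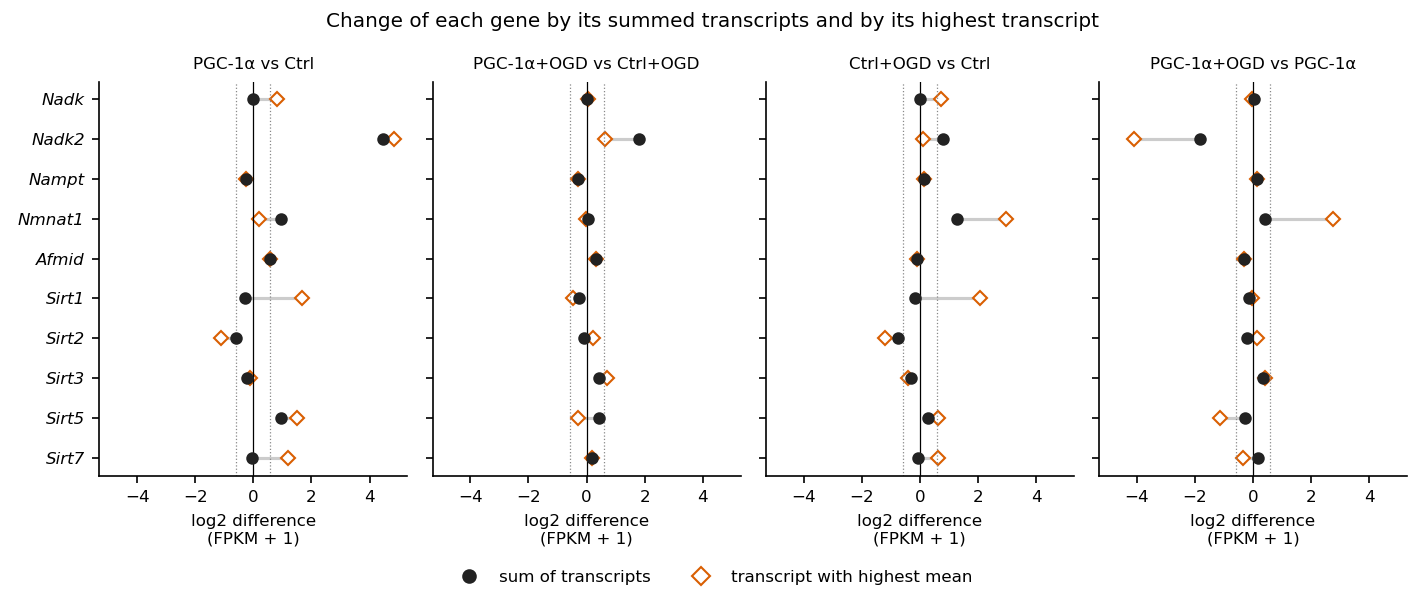
For each gene and comparison, the filled circle is the difference of log2(FPKM + 1) of the summed transcripts and the open diamond that of the transcript with the highest mean, with dotted lines at 1.5-fold in each direction. Nadk, Sirt1 and Sirt7 have circles at or below 0 and diamonds at 0.64 to 2.08 in both comparisons with Ctrl as baseline, and the diamonds of Nmnat1 and Sirt5 in these 2 panels are set against a Ctrl value listed at 0.

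None of the 8 genes had the same leading transcript in all 4 libraries, while 66.5% of the 6405 genes did. For Nadk, Sirt1 and Sirt7 the Ctrl library alone had another leader than the remaining 3 libraries. Over all genes this was so in 5.00% for Ctrl, in 5.65% for PGC-1α, in 4.84% for Ctrl+OGD and in 5.06% for PGC-1α+OGD. It was known when the genes were chosen that the choice of transcript decided directions among them. The shares are therefore given side by side and nothing is read from them. Some leaders were also low, such as Sirt5-211 at 0.598 FPKM and Nadk2-202 at 0.465 FPKM in Ctrl. Nadk and Sirt1 share no exonic bases with another gene on their strand.

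The wider pathway was followed in lists of 67 genes, of which 51 had a matched transcript and 46 were compared. Apart from the 10 genes, 36 were compared. These 36 include the overexpressed Ppargc1a, which was higher by 4.25 and 3.09 on the log2 scale in the 2 comparisons of PGC-1α with control and had -0.78 and -1.94 for OGD in control and PGC-1α cells. With Ppargc1a counted, 4 were higher and 2 lower in PGC-1α vs Ctrl, beside 4.91% and 5.63% of all genes. In PGC-1α+OGD vs Ctrl+OGD 2 were higher and 0 lower, beside 3.08% and 3.82%. With OGD, 1 was higher and 4 were lower in control cells, beside 6.20% and 7.71%, and 1 was higher and 2 lower in PGC-1α cells, beside 3.82% and 5.22%. Ppargc1a itself is 1 of the higher genes in both comparisons for PGC-1α and 1 of the lower genes in both comparisons for OGD. Their median log2 differences ran from -0.03 to 0.07.

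In the salvage list, 6 of 12 genes were compared and Nmnat1 was the only one past 1.5-fold in any comparison. Nmnat3, the mitochondrial enzyme of the NMNAT family, was at 3.65 FPKM in Ctrl against 2.71 FPKM in PGC-1α, and after OGD at 2.65 FPKM in Ctrl+OGD against 2.35 FPKM in PGC-1α+OGD. Of the 9 genes of the de novo route only Afmid had a matched transcript, and the rest are not analysed here. All 7 sirtuins were compared, and their sum was 42.4 FPKM in Ctrl against 30.7 FPKM in PGC-1α, and after OGD 31.3 FPKM in Ctrl+OGD against 33.1 FPKM in PGC-1α+OGD. Sirt6, a chromatin deacylase, was at 14.9 FPKM in Ctrl against 9.19 FPKM in PGC-1α, a log2 difference of -0.64 by its sum and of -0.02 by its highest transcript. After OGD it was at 10.6 FPKM in Ctrl+OGD against 12.3 FPKM in PGC-1α+OGD, a difference of 0.19 in the other direction. Sirt4, the remaining mitochondrial sirtuin, lay between 1.28 and 2.27 FPKM and passed 1.5-fold in no comparison.

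Among 6 compared genes of other NAD consumers, only Parp4 passed 1.5-fold, being lower in Ctrl+OGD vs Ctrl (-0.68). Parp1, the main poly(ADP-ribose) polymerase, was at 44.8 FPKM in Ctrl against 55.8 FPKM in PGC-1α, and after OGD at 62.2 FPKM in Ctrl+OGD against 61.4 FPKM in PGC-1α+OGD, all short of 1.5-fold apart. Among 6 compared genes of NAD turnover and transport, 1 passed 1.5-fold. Nudt13, a Nudix hydrolase, was at 3.06 FPKM in Ctrl and at 1.41 FPKM in both PGC-1α and Ctrl+OGD (-0.75 each), and at 2.44 FPKM in PGC-1α+OGD.

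Of 10 compared genes that make or use mitochondrial NADPH, 1 passed 1.5-fold. This was Mthfd2l, a mitochondrial folate dehydrogenase, with 9.63 FPKM in Ctrl against 17.5 FPKM in PGC-1α, and after OGD with 8.48 FPKM in Ctrl+OGD against 8.83 FPKM in PGC-1α+OGD. It was high in PGC-1α alone, with log2 differences of 0.80 against Ctrl and -0.91 for OGD in PGC-1α cells, which were 0.16 and 0.09 by its highest transcript. Idh2, which makes NADPH in mitochondria, was at 98.0 FPKM in Ctrl and between 122 and 129 FPKM in the others. Nnt, the transhydrogenase, differed by -0.24 in Ctrl+OGD vs Ctrl as a sum but by -3.56 as its highest transcript.

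The last list holds substrates of SIRT3 and partners of PGC-1, with 9 genes compared and Ppargc1a among them. Esrra, which encodes the estrogen-related receptor α that PGC-1α coactivates, was at 4.73 FPKM in Ctrl against 8.75 FPKM in PGC-1α, and after OGD at 5.13 FPKM in Ctrl+OGD against 7.30 FPKM in PGC-1α+OGD (0.77 without OGD and 0.44 with it). Sod2, the mitochondrial superoxide dismutase, was at 22.2, 36.5, 24.4 and 30.2 FPKM in the order given (0.69 and 0.30). Both were above the control level in both PGC-1α libraries, though past 1.5-fold only without OGD. Gabpa, a DNA-binding subunit of nuclear respiratory factor 2, was at 34.7, 32.3, 23.2 and 35.9 FPKM in the order given. It was higher in PGC-1α+OGD vs Ctrl+OGD (0.61) with Ctrl+OGD as the low library, and differed by -0.10 without OGD. With OGD, Pprc1, the PGC-1-related coactivator, was higher in control cells (0.75) and in PGC-1α cells (0.60), and Foxo3 had -0.67 in control cells, past the threshold, and -0.58 in PGC-1α cells, just short of it.

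Nadk2 had the largest range of the 10 genes, and the genes of nearest profile were ranked by the Euclidean distance between centred log2(FPKM + 1) values over the 4 libraries. The nearest was Mrps34, a mitochondrial ribosomal protein, at a distance of 0.99, with 0.138 FPKM in Ctrl against 10.4 FPKM in PGC-1α, and after OGD with 0.141 FPKM in Ctrl+OGD against 5.89 FPKM in PGC-1α+OGD. Next were Ppargc1a (1.24), Cox7a1, a subunit of cytochrome c oxidase (1.25), Golga2, a Golgi matrix protein (1.80), and Pcdhga12 of the protocadherin cluster (1.83), which was listed at 0 in both control libraries. Cox7a1 was at 2.92 FPKM in Ctrl against 24.5 FPKM in PGC-1α, and after OGD at 2.95 FPKM in Ctrl+OGD against 11.8 FPKM in PGC-1α+OGD. All 6 profiles were highest in PGC-1α, but the other genes were picked for their nearness to Nadk2, so this is no separate result. A log2 difference of at least 1.82, that of Nadk2 after OGD, was then taken as a cutoff. In both comparisons of PGC-1α with control it was reached by 6 of the 10604 genes, namely Matr3, Mrps34, Nadk2, Pcdhgc3, Ppargc1a and Recql5. Nadk2 is among them by construction, since the cutoff is its own summed value. By its highest transcript Nadk2 had only 0.65 in PGC-1α+OGD vs Ctrl+OGD.

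**Figure D5:**
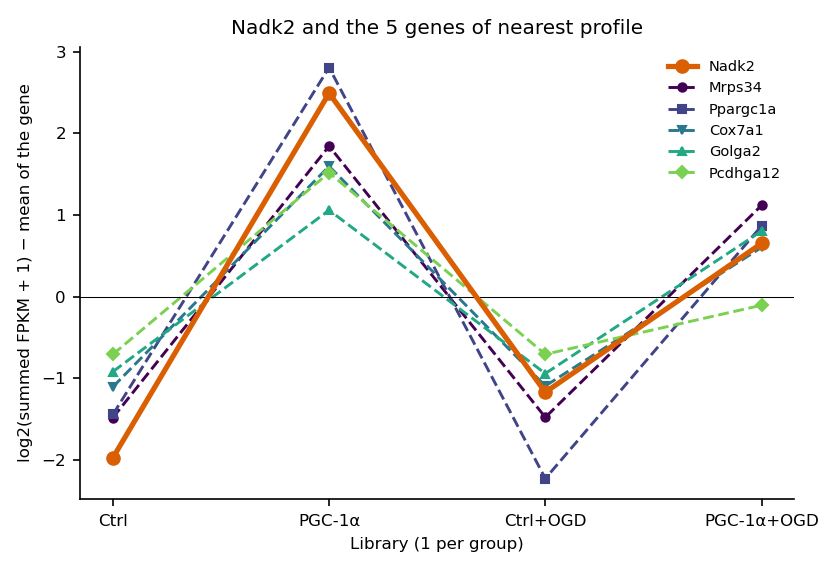
Lines join the values of log2(summed FPKM + 1) of Nadk2 and its 5 nearest genes in the 4 libraries, each centred on the mean of the gene, with 1 library per group. Nadk2 peaks in PGC-1α and is second highest in PGC-1α+OGD, and the distances of the other genes from it run from 0.99 for Mrps34 to 1.83 for Pcdhga12.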

How the data were processed

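Poly(A) RNA from 4 cultures of HT-22 cells went into stranded libraries read from both ends. Alignment to GRCm38 by the authors used HISAT2 2.1.0, by the submitters' processing notes. The table the authors deposited holds 1 value per transcript and library. These deposited values were taken as FPKM, although no source names their unit, as no value is below 0 and the totals differ between columns. The counting program, annotation, filter and use of strand are not given in the sources used here. Every transcript reached at least 0.500 in 1 or more libraries. Depth is unknown, so no interval can be given.

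Of 25889 transcripts, 25822 (99.7%) were matched to GENCODE M21 by identifier without version, and 67 were left out. Transcripts were summed per symbol and compared as log2(FPKM + 1) with a minimum mean of 1 FPKM and a threshold of 1.5-fold. The sum was preferred to the transcript with the highest mean because the latter was known to decide directions. The members and lists were chosen with earlier results of these data known. Named were the 10 genes, Ppargc1a, listed genes past 1.5-fold, the 5 genes nearest to Nadk2 and genes sharing exons. Nmnat3, Sirt4, Parp1, Idh2, Nnt, Matr3, Pcdhgc3 and Recql5, and genes on the opposite strand, were named after their values were seen. All 4 columns were used (0 left out). Python 3.11.15, numpy 2.4.6 and pandas 2.3.3 were used, and the computation was tested on simulated data.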

Additional observations from a re-analysis of the deposited data

Results flagged for a closer look

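For Nadk2, the OGD difference had opposite signs in the different cell types, with a log2 difference of 0.80 in control cells and of -1.84 in PGC-1α cells, which are apart by -2.65. For Sirt3, the PGC-1α difference was -0.20 without OGD and 0.44 with OGD, which are apart by 0.64, and its OGD difference was -0.31 in control cells and 0.33 in PGC-1α cells, by construction apart by the same 0.64. With 1 library per group these differences between effects were not tested.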

How the results depend on the processing

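No paired analysis was possible because each group had 1 library and the groups compared shared fewer than 2 replicate numbers. A fit of PGC-1α and OGD as additive effects over the 4 libraries was not run, as the genes were chosen on these contrasts. Leaving out a library leaves its comparisons without a side. Over 368 values of single genes under 10 alternatives, 325 kept their sign and their side of the threshold, 25 changed side alone, 8 changed sign alone and 10 changed both. The highest transcript of Sirt5, with a mean of 0.661 FPKM, fell below the minimum of 1 FPKM and was left out here, so its reversal described above is not counted. Of the 18 changes of sign, 11 came with the highest transcript, 5 without the most abundant transcript and 2 with median ratio scaling. In 2 of them a value past 1.5-fold changed sign, both on leaving out the most abundant transcript: Nadk2 for OGD in PGC-1α cells (0.44, against -1.84) and Nmnat1 for OGD in control cells (-0.26, against 1.29). Upper quartile scaling changed none of the signs or sides. No filter on low values and protein-coding transcripts alone could change none. All 10 genes passed the filter, and all their transcripts are annotated as protein coding. A mean of at least 5 FPKM leaves the values of the kept genes as they were, and a 2-fold threshold cannot change a sign. Values kept under these settings are therefore no measure of stability.

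Of the 10 genes, 4 passed 1.5-fold in PGC-1α vs Ctrl, and 1 did at a 2-fold threshold. There, 3 higher and 1 lower became 4 and 0 with median ratio scaling and 2 and 3 of 7 genes without the most abundant transcript. For Ctrl+OGD vs Ctrl, 2 higher and 1 lower became 1 and 2 of 7 without it. In PGC-1α+OGD vs Ctrl+OGD 1 did, which became 2 and 3 with pseudocounts of 0.1 and 0.01, 2 by the highest transcript and 2 without the most abundant one. In Ctrl+OGD vs Ctrl 3 did, which became 1 at 2-fold and 5 by the highest transcript. In PGC-1α+OGD vs PGC-1α 1 did, which became 2 by the highest transcript and 2 without the most abundant one. Counts of the 10 genes by the highest transcript are of 9, without Sirt5. The highest transcript of Sirt5 gave -1.13 in PGC-1α+OGD vs PGC-1α and 0.64 in Ctrl+OGD vs Ctrl, which are not counted. For all lists, 3 genes in PGC-1α+OGD vs Ctrl+OGD became 5 and 6 with the smaller pseudocounts, and 4 in PGC-1α+OGD vs PGC-1α became 7 with either and 7 by the highest transcript.

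Over the whole table, 1118 genes passed in PGC-1α vs Ctrl, against 731 with a mean of at least 5 FPKM, 318 at 2-fold and 1785 by the highest transcript. For PGC-1α+OGD vs Ctrl+OGD these counts were 732, 433, 222 and 1364, and 1523 without the most abundant transcript. For Ctrl+OGD vs Ctrl 1475 genes became 364 at 2-fold. For PGC-1α+OGD vs PGC-1α 958 became 570, 303 and 1690, and 1660 without the most abundant transcript. A stricter mean or fold leaves fewer genes by construction. For the other shifts the cause was not tested. Depth is unknown, so the precision of low values such as those of Sirt5 cannot be given.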
